A study of Mus musculus with 13 samples.

Results

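The genes of sterol and fatty acid synthesis were compared between cell lines grown from mammary tumours of wild type (WT) and JNK knockout mice of the strain FVBN/J, in a study of JNK in breast cancer driven by HER2. The 31 genes were taken by name: 7 of the mevalonate steps, 11 of the steps from squalene to cholesterol, 6 regulators and sterol carriers, and 7 of the fatty acid branch. All 31 were among the 23845 genes of the deposited tables and among the 13058 with enough reads for a test. There were 6 WT and 7 JNK knockout lines, numbered here within each group. All of them were started on collagen I in low serum and then kept on plain dishes with more serum, EGF and insulin. Which JNK genes or exons were deleted, in which cells, and how HER2 was activated are not stated in the labels. WT replicates 4 and 5 bear titles with a shared number and may share an animal, so the p-values here speak of these lines and not of separate animals. Every WT title opens with different letters from every knockout title, so a difference in colony or handling cannot be told apart from the genotype.

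Cells make cholesterol from acetyl-CoA through mevalonate, isoprenoid diphosphates, squalene and lanosterol, and make fatty acids from the same precursor through acetyl-CoA carboxylase and fatty acid synthase. Transcription of both routes is driven by SREBP factors, encoded by Srebf1 (mostly fatty acid genes) and Srebf2 (mostly cholesterol genes). Their precursors are carried from the endoplasmic reticulum by SCAP when membrane sterol is low and are held back by INSIG proteins when it is high. In the mammary gland the same enzymes supply milk fat during lactation, and serum in culture medium brings sterols and lipids from outside.

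Promoter windows are shown for Dhcr7 and Srebf1, the genes called lower in the knockout lines. Hmgcs1, a sterol-responsive gene of the first steps that was not called, is shown beside them. Each window runs from 250 bases before to 50 after an annotated start (RefSeq, GRCm38.p6), and capitals mark matches to a sterol regulatory element (TCACNCCAC), to the NF-Y box (CCAAT) or to an AP-1 site (TGANTCA), the motif of JUN and FOS factors, on either strand.
Dhcr7 window A, chr7:143829964-143830263, plus strand: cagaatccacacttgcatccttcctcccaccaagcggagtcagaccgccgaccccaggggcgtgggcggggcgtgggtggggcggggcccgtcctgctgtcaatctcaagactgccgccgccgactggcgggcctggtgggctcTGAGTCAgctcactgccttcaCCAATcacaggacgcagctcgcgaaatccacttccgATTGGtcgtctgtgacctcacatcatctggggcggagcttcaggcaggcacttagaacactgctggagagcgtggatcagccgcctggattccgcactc
Dhcr7 window B, chr7:143822917-143823216, plus strand: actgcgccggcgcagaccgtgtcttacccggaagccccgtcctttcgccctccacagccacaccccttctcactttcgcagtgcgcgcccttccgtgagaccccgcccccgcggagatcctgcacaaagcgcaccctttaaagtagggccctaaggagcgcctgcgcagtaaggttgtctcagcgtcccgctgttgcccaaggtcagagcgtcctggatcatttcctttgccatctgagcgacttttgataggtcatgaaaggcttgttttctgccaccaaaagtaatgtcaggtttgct
Srebf1 window A, chr11:60210422-60210721, minus strand: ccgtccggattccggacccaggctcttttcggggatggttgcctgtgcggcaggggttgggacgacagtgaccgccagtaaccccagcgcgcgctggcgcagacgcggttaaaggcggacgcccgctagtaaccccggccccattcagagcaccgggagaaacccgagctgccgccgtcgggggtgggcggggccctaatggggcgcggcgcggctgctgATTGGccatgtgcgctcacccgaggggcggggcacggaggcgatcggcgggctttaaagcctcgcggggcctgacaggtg
Hmgcs1 chr13:119690101-119690400, plus strand: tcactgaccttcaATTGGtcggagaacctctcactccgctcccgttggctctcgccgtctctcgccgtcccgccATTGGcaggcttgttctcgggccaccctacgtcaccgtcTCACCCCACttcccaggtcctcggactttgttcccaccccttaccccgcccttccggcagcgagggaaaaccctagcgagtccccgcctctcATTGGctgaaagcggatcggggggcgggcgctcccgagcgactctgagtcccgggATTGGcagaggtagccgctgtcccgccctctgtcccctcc
RefSeq lists 3 starts each for Dhcr7 and Srebf1 and 1 for Hmgcs1, and which of them these lines use was not measured. Dhcr7 window A, at the most downstream start, held an AP-1 match 106 bases before the start and 2 NF-Y matches, 85 and 49 bases before it, while window B, at the first base of the annotated gene, and the window not printed held none of these motifs. Srebf1 window A held 1 NF-Y match, another Srebf1 window, not printed, held 1 as well, and the remaining window held none. The Hmgcs1 window held 4 NF-Y matches and a sterol regulatory element 137 bases before the start. Scap, the gene called higher in the knockout lines, has 2 windows, not printed, and neither held any of these motifs.

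Windows were at hand for 24 of the 31 genes. The NF-Y box was present in 20 of the 24 (83.3%), against 41.1% of all 27025 genes with a window and 43.2% of those tested for expression. In the cholesterol branch 14 of 15 genes had it, and in the fatty acid branch 2 of 4. The sterol regulatory element in these letters was found in Hmgcs1 alone of the 24 (4.17%, against 1.44% of all genes), and the AP-1 site in Dhcr7 and Msmo1 (8.33%, against 8.97%). No match of one motif overlapped a match of another. A match of letters is a description and not a site shown to be bound.

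Each line had a sum of 38298602 to 46689809 expected counts. The genotype labels were checked on the JNK genes. Counts scaled to a common library size are given as CPM. Mapk8 was 29.8 ± 5.38 CPM (SD, n = 6) in the WT group and 5.76 ± 1.32 CPM (SD, n = 7) in the knockout group, and Mapk9 was 60.02 ± 6.59 and 19.3 ± 5.11 CPM, with no overlap of the groups for either gene. The lines carried epithelial markers: Epcam ranged from 509 to 1407 CPM in WT and from 40.8 to 608 CPM among knockouts. The keratin type differed between the groups. Krt5 and Krt14, of basal cells, were called higher in the knockout lines, and Krt8 and Krt18, of luminal cells, lower. Knockout replicate 2 stood apart, with 12403 CPM of Krt5 and the lowest Epcam and Cdh1 of the 13 lines, and WT replicate 3 held 11993 CPM of the milk protein gene Csn3. Of 10 adipocyte markers 8 were below 1 CPM in every line, and Plin1, Cidec, Retn and Cfd had 0 reads. The sum of these 10 markers ranged from 12.99 to 24.0 CPM in WT and from 9.33 to 24.8 CPM among knockouts. The sum of 10 fibroblast markers was 17.6 to 645 CPM in WT, highest in replicate 3, and 7.16 to 68.2 CPM among knockouts. The part of these differences in the results was not tested. In bulk RNA, fewer cells of a kind and less RNA per cell cannot be told apart.

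Of the 31 genes 2 were lower in the knockout lines, Dhcr7 and Srebf1, and 1 was higher, Scap, by edgeR's quasi-likelihood test with Benjamini-Hochberg adjustment over all genes tested (adjusted p under 0.05). Among all 13058 genes 4.17% were called lower, 4.33% higher and 8.51% in either direction, so 3 calls among 31 genes is close to the background. Of the remaining 28 genes 22 had an estimate below 0 and 6 above. Over the 31 genes the median log2 fold change (knockout minus WT) was -0.27, with 24 estimates below 0, against a median of 0.01 and 49.4% below 0 over all genes. Unadjusted p was under 0.05 for 11 of the 31 genes, against 3431 of 13058. For none of the 31 did the groups separate fully, against 4.05% of all genes.

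**Figure D1:**
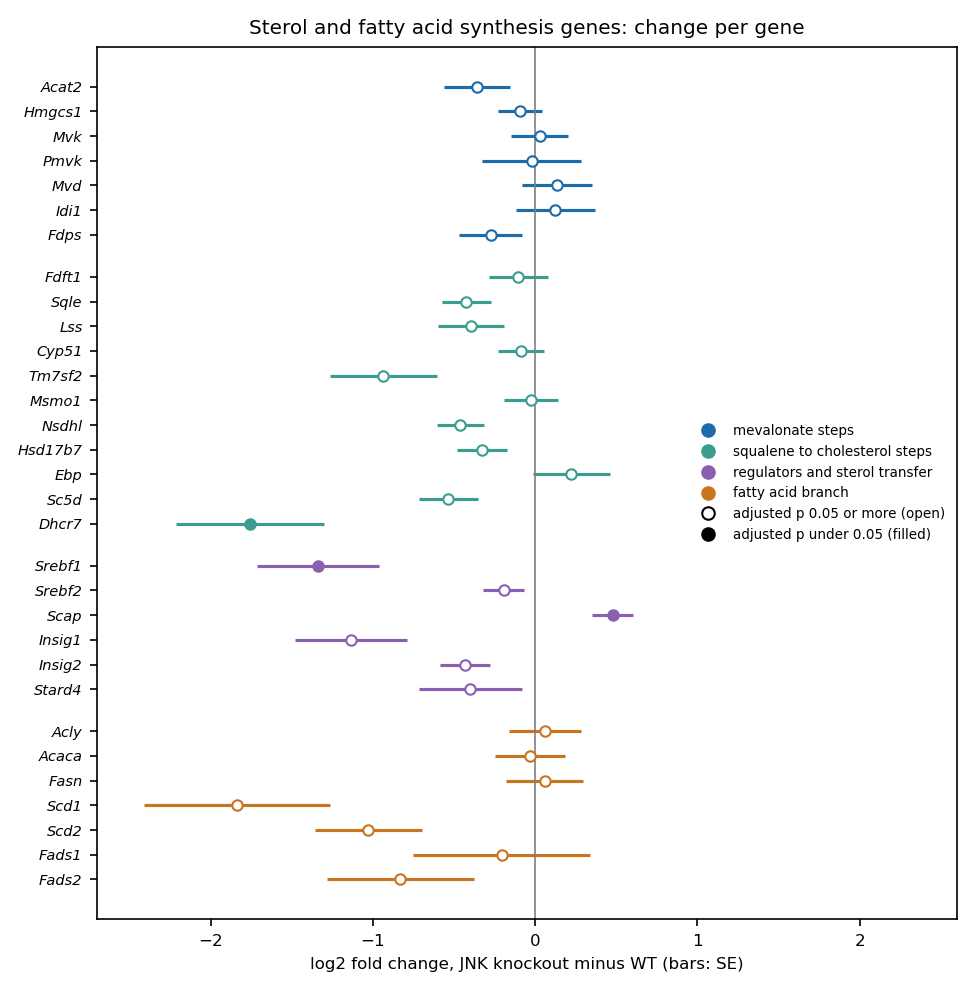
Log2 fold change of each of the 31 genes (horizontal axis, JNK knockout minus WT; bars are the approximate SE), grouped by role and coloured by group. Filled points are the 3 genes with adjusted p under 0.05 (Dhcr7 at -1.76, Srebf1 at -1.34 and Scap at 0.48), and mevalonate genes lie near 0, between -0.36 and 0.13.

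Srebf1 (chr11:60199084-60224186) encodes the precursor of SREBP-1. In WT lines 1 to 6 it was at 144, 468, 964, 186, 383 and 199 CPM. The knockout lines 1 to 7 had 142, 142, 131, 137, 149, 195 and 185 CPM. The WT lines were widely spread, with replicates 2, 3 and 5 high, while the knockout lines sat together at the level of the 3 low WT lines, and 4 of the 7 lay below every WT line. The mean was 391 ± 308 CPM (SD, n = 6) against 154 ± 25.1 CPM (SD, n = 7). This was called lower, with an estimate of -1.34 on the log2 scale (SE 0.38, adjusted p = 0.043). The deposited Srebf1 row lists 1 transcript, so the ratio of the forms of SREBP-1 was not measured. The call held in 4 of 13 fits that each omitted 1 line, those without WT replicate 1, 4 or 6 or knockout replicate 6, and without WT replicate 3 the log2 fold change was -0.84 (adjusted p = 0.075). With limma-voom it was -1.03 and was not called (adjusted p = 0.0977). The sum of 10 markers of lactating mammary epithelium was 128, 2110, 12359, 229, 593 and 246 CPM in WT replicates 1 to 6, and 152 to 454 CPM among knockouts. In WT replicates 2 and 3, which had the highest Srebf1, most of the sum was the casein gene Csn3 (1658 and 11993 CPM). Other members were mixed. Elf5 was also highest of the WT lines in replicates 2 and 3 (338 and 212 CPM). So was Csn1s1 (1.85 and 8.86 CPM), though knockout replicates 5 and 7 had more (39.2 and 66.5 CPM). Btn1a1 was lowest of the WT lines in replicate 3 (2.77 CPM), and Xdh was lowest in replicate 2 (82.1 CPM). Wap and Csn1s2a were below 1 CPM in every line. The part of Csn3 or of the sum in the difference of Srebf1 was not tested.

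Scap (chr9:110333288-110384949) encodes the sterol-sensing escort of the SREBP precursors. Its level in WT lines 1 to 6 was 120, 106, 93.2, 102, 105 and 118 CPM. In knockout lines 1 to 7 the level was 167, 190, 132, 136, 113, 150 and 160 CPM. Knockout replicate 5 lay inside the WT range and the other 6 lay above it. The mean rose from 107 ± 10.0 to 150 ± 25.4 CPM, 1.39-fold (log2 fold change 0.48, SE 0.13, adjusted p = 0.034). The call was lost when WT replicate 2, 3, 4 or 5 or knockout replicate 1 or 7 was left out, and on log2(TPM + 1), where TPM is the transcript abundance scaled for length, the difference was 0.23 (adjusted p = 0.38).

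Srebf2, which encodes SREBP-2, was not called (log2 fold change -0.19, SE 0.13, adjusted p = 0.35). It was the most even of these genes among WT lines, at 329 to 350 CPM. The corresponding values of knockout lines 1 to 7 were 311, 310.5, 280, 319, 214, 390 and 258 CPM. None of these 7 values fell inside the narrow WT range: 6 were below it and that of replicate 6 was above. The means were 340 ± 7.50 CPM for WT and 298 ± 55.1 CPM for the knockouts, so the difference of the means was smaller than the SD among knockout lines.

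Insig1, a target of the SREBPs that retains their precursors, was likewise not called by edgeR with all lines. In WT lines 1 to 6 it was at 105, 116, 264, 162, 274 and 154 CPM. In knockout lines 1 to 7 it was at 97.3, 23.3, 79.9, 118, 55.3, 125 and 72.5 CPM. Knockout replicates 4 and 6 lay within the WT range and the other 5 below it, with replicate 2 lowest. The log2 fold change was -1.14 (SE 0.35, adjusted p = 0.059), and it passed the threshold without knockout replicate 2 or 6. DESeq2 called it lower (adjusted p = 0.019), as did limma on log2(TPM + 1) (adjusted p = 0.036). Insig2, which encodes the other INSIG protein, was at -0.43 on the log2 scale (SE 0.16, adjusted p = 0.0965). Stard4, which encodes a soluble sterol carrier, was at -0.40 (SE 0.32, adjusted p = 0.45).

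**Figure D2:**
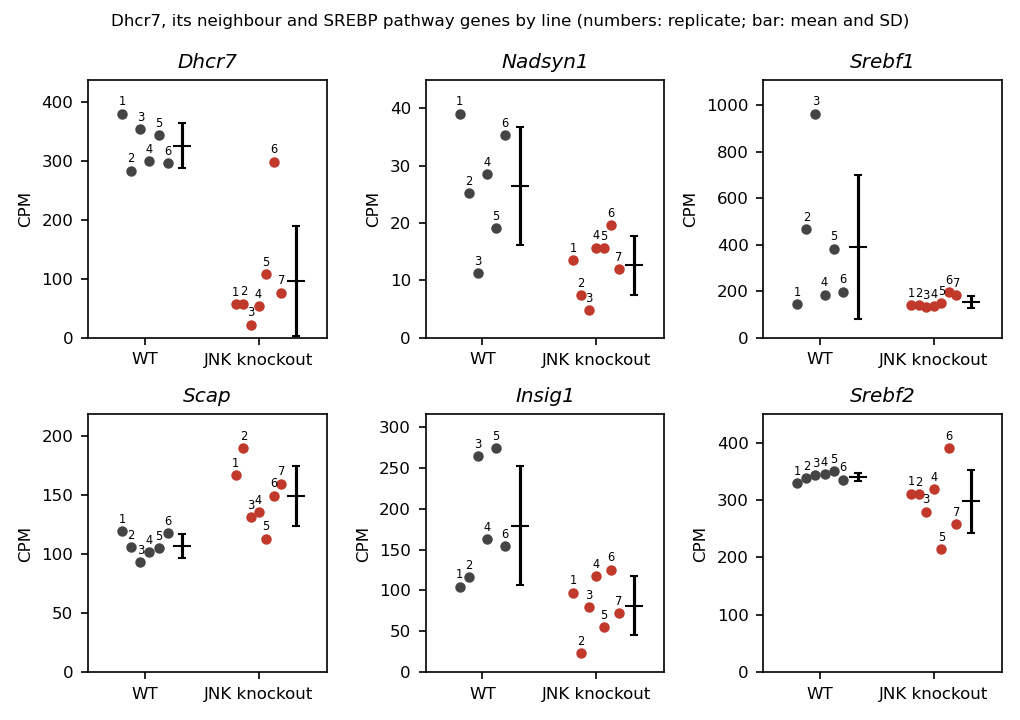
CPM of Dhcr7, the gene next to it (Nadsyn1), Srebf1, Scap, Insig1 and Srebf2 in each line (points, numbered by replicate), with the mean and SD of each group as a bar; every vertical axis starts at 0. Knockout replicate 6 sits with the WT lines for Dhcr7 at 299 CPM, and the WT lines of Srebf1 range from 144 to 964 CPM while the knockout lines range from 131 to 195 CPM.

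None of the 7 genes of the mevalonate steps was called, and their median log2 fold change was -0.02. Hmgcs1, which encodes the synthase that makes HMG-CoA, was at 303, 390, 255, 387, 330 and 350 CPM in WT lines 1 to 6. Among knockout lines 1 to 7 it was at 342, 328, 285, 383, 254, 339 and 272 CPM. The groups overlapped almost fully, with an estimate of -0.09 (SE 0.13, adjusted p = 0.70) on the log2 scale. The kinase genes Mvk and Pmvk, the decarboxylase gene Mvd and the isomerase gene Idi1 had estimates between -0.02 and 0.13. Acat2, which encodes the thiolase at the entry of the route, was at -0.36 (SE 0.20, adjusted p = 0.28). Fdps, which makes farnesyl diphosphate for sterols and for prenylated proteins, was at -0.27 (SE 0.20, adjusted p = 0.40). Fdps was also the most abundant gene of the cholesterol branch per length, at 602 ± 76.5 TPM in WT lines and 429 ± 128 TPM in knockout lines.

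In the steps from squalene to cholesterol 0 genes were higher and 1 was lower, the median log2 fold change was -0.40, and 10 of 11 estimates were below 0. Unadjusted p was under 0.05 for 5 of the 11. Among all 13058 genes tested 4.17% were called lower, 49.4% had estimates below 0, and 3431 had unadjusted p under 0.05. The gene called was Dhcr7 (chr7:143823167-143848410), which encodes the reductase that turns 7-dehydrocholesterol into cholesterol. In WT lines 1 to 6 Dhcr7 was at 380, 284, 354, 299, 344 and 296 CPM. The 7 knockout lines, in the order of their numbers, were at 57.8, 58.2, 22.2, 54.4, 108, 299 and 76.9 CPM. Knockout replicate 6 was at the WT level, and the other 6 lay far below every WT line. The means were 326 ± 38.6 CPM (SD, n = 6) and 96.7 ± 92.8 CPM (SD, n = 7), 3.38-fold lower in the knockouts, and the test gave -1.76 on the log2 scale (SE 0.46, adjusted p = 0.033). Per length it was 220 ± 29.9 TPM and 56.3 ± 59.0 TPM, and Scd2, Fdps, Scd1 and Idi1 were the genes above it in WT lines. Without knockout replicate 6 the log2 fold change was -2.37 (adjusted p = 0.0015). The call was also kept without WT replicate 2, knockout replicate 2 or knockout replicate 3, and lost when any of the other 9 lines was left out, where adjusted p reached 0.070, or when WT replicates 4 and 5 were summed (adjusted p = 0.053). The estimate ranged from -2.37 to -1.58 over these 13 fits.

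Nadsyn1, which encodes an enzyme of NAD synthesis, lies next to Dhcr7 on the opposite strand, with 304 bases between the annotated genes, and Dhcr7 window B covers most of the gap. Nadsyn1 was at 39.0, 25.2, 11.3, 28.6, 19.1 and 35.3 CPM in WT lines 1 to 6. Among knockout lines 1 to 7 it was at 13.5, 7.41, 4.81, 15.7, 15.6, 19.6 and 11.9 CPM. Its log2 fold change of -1.06 (SE 0.34) did not pass the test (adjusted p = 0.069), and 2 knockout lines lay below every WT line. Knockout replicate 3 was lowest and knockout replicate 6 highest of the knockout lines for both genes.

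The other enzymes of the late steps were not called by edgeR with all lines. Sqle, the squalene epoxidase gene, was at -0.43 (SE 0.15, adjusted p = 0.094). Nsdhl, which encodes a dehydrogenase that helps remove methyl groups from the sterol ring, was at -0.46 (SE 0.15, adjusted p = 0.069). For each of these 5 of 7 knockout lines lay below every WT line. Sc5d, the desaturase gene of a step just ahead of Dhcr7, was at -0.53 (SE 0.18, adjusted p = 0.087). Tm7sf2, a sterol reductase gene, was at -0.94 (SE 0.33, adjusted p = 0.093) and had the lowest TPM of the 31 genes. The squalene synthase gene Fdft1, the lanosterol synthase gene Lss, the lanosterol demethylase gene Cyp51, the methylsterol oxidase gene Msmo1 and the ketoreductase gene Hsd17b7 had estimates between -0.40 and -0.03, and the isomerase gene Ebp was at 0.22 (SE 0.24, adjusted p = 0.58). DESeq2 called Tm7sf2 and Nsdhl lower (adjusted p = 0.044 and 0.036), and limma on log2(TPM + 1), a scale on which the median of all genes was -0.19, called Sqle, Nsdhl and Sc5d lower (adjusted p = 0.028, 0.020 and 0.040). With edgeR and 1 line fewer, Sqle passed without knockout replicate 6, Nsdhl without knockout replicate 4 and Tm7sf2 without WT replicate 2. Over the 18 genes of the cholesterol branch the edgeR median was -0.19.

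In the fatty acid branch 0 of 7 genes were called by edgeR, 2 had unadjusted p under 0.05, and the median log2 fold change was -0.21. Among all 13058 genes tested 8.51% were called in either direction, and 3431 had unadjusted p under 0.05. The genes that build palmitate gave estimates near 0. Acly, which encodes the lyase that supplies acetyl-CoA from citrate, was 504 ± 82.6 CPM against 525 ± 174 CPM in the knockouts. Acaca, an acetyl-CoA carboxylase gene, was 170 ± 55.3 and 167 ± 46.0 CPM. Fasn, the fatty acid synthase gene, was at 465, 452, 435, 455, 577 and 511 CPM in WT lines 1 to 6. Knockout lines 1 to 7 had 777, 410, 602, 715, 263, 441.5 and 306 CPM. The knockout lines spread to both sides of the WT lines, 3 above all of them and 3 below, and the estimate was 0.06 on the log2 scale (SE 0.24, adjusted p = 0.90).

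Within this branch the ratio of highest to lowest line was largest for Scd1 and Scd2 among WT lines. Among knockout lines it was largest for Fads1 and Fads2. Scd1 and Scd2 encode enzymes that put a double bond into stearate. Scd1 was at 142, 1858, 3242, 494, 1916 and 363 CPM in WT lines 1 to 6, a span of 22.9-fold. Among knockout lines 1 to 7 it was at 367, 249.3, 365, 309, 256, 586 and 486 CPM. The WT lines high in Srebf1 (replicates 2, 3 and 5) were the high ones here too, and no knockout line lay below every WT line, since WT replicate 1 was lowest of all. The log2 fold change was -1.84 (SE 0.57) and did not pass the test of edgeR (adjusted p = 0.062). Scd2 was at 694, 2879, 3611, 1570, 2375 and 1339 CPM in WT lines and at 945, 818, 838, 1077, 709, 1697 and 1050 CPM in knockout lines, in replicate order. Its log2 fold change was -1.03 (SE 0.33, adjusted p = 0.070), again with WT replicate 1 lowest in CPM. In TPM, Scd2 was lower in knockout replicates 2 and 5 (235 and 147 TPM) than in WT replicate 1 (243 TPM). DESeq2, which called 2408 genes in all, called both lower (adjusted p = 0.011 for Scd1 and 0.027 for Scd2), and so did edgeR without WT replicate 1. Scd1 also passed without WT replicate 6, and Scd2 without knockout replicate 6. Scd1 and Scd2 are related in sequence, as are Fads1 and Fads2, and how RSEM divided reads between related genes was not examined.

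Fads1 and Fads2, neighbours on chromosome 19, encode desaturases that make polyunsaturated fatty acids. Fads1 was between 60.5 and 125 CPM in WT lines. Knockout lines 1 to 7 held Fads1 at 91.1, 246, 94.1, 38.8, 14.7, 32.99 and 21.8 CPM, 16.7-fold from lowest to highest. Fads2 was between 102 and 161 CPM in WT lines. In knockout lines 1 to 7 Fads2 was at 121, 124, 69.9, 68.7, 10.95, 18.2 and 46.97 CPM. For both genes knockout replicates 1 and 2 were at or above the WT median, and replicates 4, 5, 6 and 7 were below every WT line. Replicate 3 was below every WT line for Fads2 alone. The log2 fold changes were -0.21 (SE 0.55, adjusted p = 0.84) for Fads1 and -0.83 (SE 0.45, adjusted p = 0.26) for Fads2. Fads1 is the middle value of the 7 fatty acid genes, and without knockout replicate 2 the branch median was -0.86.

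**Figure D3:**
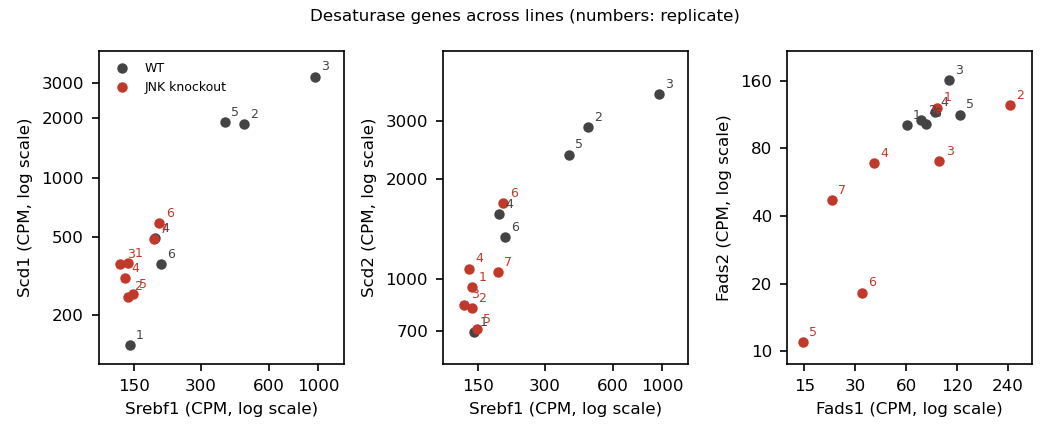
CPM of Scd1 and Scd2 against Srebf1, and of Fads2 against Fads1, in each of the 13 lines (log axes; points numbered by replicate, dark for WT and red for JNK knockout). WT replicates 2, 3 and 5 lie apart at the upper right for Scd1 and Scd2, and knockout lines run from 10.95 to 124 CPM of Fads2.

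Relations to Srebf1 were computed for the other 30 genes within each group, on log2 CPM, as 60 relations in all. Among WT lines (n = 6) Scd1 had a Pearson r of 0.94 (exact permutation p = 0.021, two-sided) and a Spearman rho of 0.89 (exact permutation p = 0.033). Leaving out the lines farthest from the median of Srebf1, WT replicates 1 and 3, gave an r of 0.96 over 4 lines. Scd2 had an r of 0.92 (exact permutation p = 0.018) and a rho of 0.94 (exact permutation p = 0.017), and an r of 0.97 without those lines. Of the 4 lines left, WT replicates 2 and 5 had 468 and 383 CPM of Srebf1. WT replicates 4 and 6 had 186 and 199 CPM. The r values over 4 lines thus rest mainly on the gap between these pairs. Among knockout lines (n = 7) Dhcr7 had an r of 0.81 (exact permutation p = 0.011) and a rho of 0.93 (exact permutation p = 0.0068), with 0.96 without replicates 6 and 7. Dhcr7 showed no such relation among WT lines (r = 0.04, exact permutation p = 0.94; rho = -0.26, exact permutation p = 0.66). Among knockout lines Scd1 and Scd2 had r values of 0.77 (exact permutation p = 0.053) and 0.71 (exact permutation p = 0.075), which turned to -0.65 and -0.49 without replicates 6 and 7 and so rest on those lines. None of the 60 passed Benjamini-Hochberg adjustment: adjusted p was at least 0.417 for every r, and 0.40 was the lowest for any rho.

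In CPM the lines differed in which branch was low. Expressed as the median log2 difference from the WT mean, the cholesterol branch was at -0.83 in knockout replicate 2 and -0.54 in replicate 3. The remaining knockout lines were between -0.38 and 0.10, and WT lines were between -0.13 and 0.20. The fatty acid branch was lowest in knockout replicate 5, at -1.36, with replicates 4 and 7 both at -0.75. Knockout replicates 1 and 3 were at 0.08 and 0.09, and WT lines between -0.36 and 0.32. Knockout replicate 2 was the lowest of all 13 lines for 11 genes, 10 of them in the cholesterol branch and the other being Insig1, yet it was the highest for Scap and Fads1. Knockout replicate 5 was lowest for 9 genes, among them Fasn, Acly, Fads1, Fads2, Hmgcs1, Srebf2, Insig2 and Stard4. WT replicate 3 was the highest of all lines for 8 genes. In TPM, knockout replicate 5 was lowest for Lss and Cyp51 (21.9 and 73.2 TPM, against 28.7 and 77.9 TPM in knockout replicate 2). Fdps and Acat2 stayed lowest in knockout replicate 2 (257 and 55.7 TPM, against 415 and 77.55 TPM in replicate 5). How far the branches part in knockout replicate 5 thus depends on the scale. Knockout replicate 2 is also the line with the highest Krt5 and the lowest Epcam, and the part of that difference in its sterol genes was not tested.

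**Figure D4:**
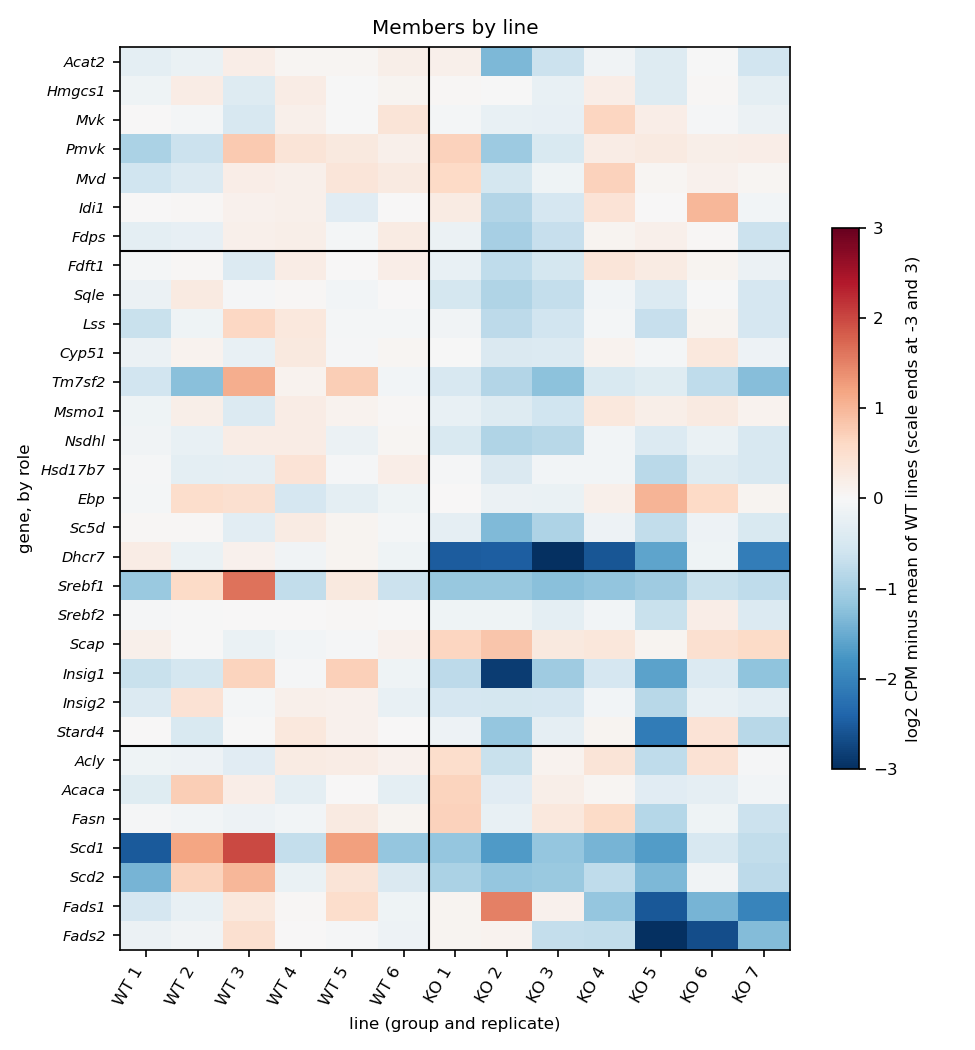
Log2 CPM of the 31 genes in each line minus the mean of the WT lines (colour scale from -3 to 3, rows grouped by role, WT left of the vertical line; KO stands for JNK knockout). Dhcr7 is low in 6 of 7 knockout lines, 10 of 18 cholesterol genes are lowest in knockout replicate 2, and Fads1 and Fads2 are lowest in knockout replicate 5.

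Genes around these routes were read from 5 further lists with 77 genes, of which 76 were tested. Among the 76 genes 3 were higher and 4 lower, the median log2 fold change was -0.06, and 20 had unadjusted p under 0.05. The 7 calls among 76 genes lie near the background of 8.51%, and 20 of 76 near the 3431 of 13058 at that unadjusted level. Of 11 other sterol synthesis genes 1 was higher: Dhdds, a subunit gene of the enzyme that makes dolichol from farnesyl diphosphate, rose from 18.4 ± 4.17 to 29.5 ± 6.25 CPM (log2 fold change 0.68, SE 0.19, adjusted p = 0.040). Of 18 genes of sterol regulation, uptake and transport 1 was lower: Scarb1, a receptor gene for high density lipoprotein, fell from 109 ± 16.6 to 71.4 ± 17.1 CPM (log2 fold change -0.61, SE 0.17, adjusted p = 0.041). Each of these calls held in 4 of the 13 fits with 1 line fewer. On log2(TPM + 1) the difference of Dhdds was 0.42 and not called (adjusted p = 0.15). None of 10 genes of sterol efflux and LXR, the oxysterol receptor, was called by edgeR, and 1 had unadjusted p under 0.05.

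Of 21 other fatty acid genes 2 were higher and 1 lower, against 4.33% and 4.17% of all genes tested. Elovl4, which encodes an elongase of very long chains, was at 0.661, 0.0936, 0.0269, 0.198, 0.0612 and 0.355 CPM in WT lines 1 to 6, a total of 60 reads. In knockout lines 1 to 7 it was at 44.9, 49.9, 20.2, 4.32, 3.54, 6.56 and 84.4 CPM, a total of 8947 reads. Every knockout line was above every WT line (adjusted p = 0.0029), and the call held in all 13 fits that left out 1 line, though not with limma-voom (adjusted p = 0.066). Elovl1, another elongase gene, was also higher, with no overlap in CPM, at 38.7 ± 3.70 and 56.9 ± 11.5 CPM (log2 fold change 0.55, SE 0.14, adjusted p = 0.029), and kept its call in 7 of the 13 fits. In TPM the groups overlapped, with knockout replicate 5 at 35.9 TPM and WT lines up to 45.7 TPM, and on log2(TPM + 1) the difference was 0.30 and not called (adjusted p = 0.19). Mlxipl, which encodes the carbohydrate-responsive factor ChREBP, was lower, at 3.32 ± 3.34 against 0.570 ± 0.193 CPM (adjusted p = 0.049). Only WT replicates 2, 3 and 5 held more than 1 CPM of it, the same lines that were high in Srebf1, and the call was kept in 3 of 13 fits and lost with limma-voom (adjusted p = 0.28) and on log2(TPM + 1) (adjusted p = 0.12).

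Of 16 glycerolipid genes 2 were lower, and for each the 7 knockout lines all lay under the WT range. Among all genes tested 4.17% were called lower, and for 4.05% the groups did not overlap in either direction. Acsl4, which encodes an acyl-CoA synthetase with a preference for arachidonate, was at 1087, 1604, 2186, 1167, 1759 and 985 CPM in WT lines 1 to 6. Knockout lines 1 to 7 were at 256, 180, 563, 281, 407, 507 and 375 CPM. It fell 3.99-fold (log2 fold change -1.997, SE 0.28, adjusted p = 0.0021); it was called in all 25 alternative fits. Lpin2, which encodes a phosphatidate phosphatase, fell from 58.2 ± 5.40 to 32.7 ± 7.74 CPM (log2 fold change -0.83, SE 0.17, adjusted p = 0.012), also in each of the 13 fits with 1 line fewer.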

How the data were processed

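RNA-seq of 13 lines (6 WT, 7 JNK knockout) was analysed from tables of genes by symbol. The submitters' processing notes name cutadapt, RSEM and the builds mm10 and GRCm38; the authors deposited expected counts per gene, as RSEM gives them. TPM values of the same genes, scaled for length, were deposited beside them. Not given in the sources used here: aligner, annotation release, strand use, versions. Expected counts were rounded to whole numbers, filtered with filterByExpr, scaled by TMM and compared with the quasi-likelihood F test of edgeR 4.0.16 (R 4.3.3), with group as the only term and Benjamini-Hochberg adjustment over the 13058 genes tested. SE values are approximate (absolute log2 fold change over the root of F). CPM compares lines, and TPM compares genes. The procedure was tested on simulated data.

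The members and lists were chosen with earlier results of these data known. All members are accounted for; values per line are given for called members, Srebf1, Srebf2, Insig1, Fasn and Hmgcs1, and up to 10 called genes of the other lists; values per line of other genes, and Nadsyn1, Csn3 and the marker genes, were chosen after their values were seen. Older symbols were matched through RefSeq synonyms. Motifs were searched on both strands of RefSeq promoter windows. Alternatives were other scalings, filters and thresholds, DESeq2 1.42.0, limma-voom (limma 3.58.1), limma on log2 TPM, each line left out, WT replicates 4 and 5 summed, and WT replicate 3 with knockout replicate 2 left out.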

Additional observations from a re-analysis of the deposited data

Results flagged for a closer look

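Among the 62 groups of values examined (31 genes in 2 groups), 6 held a line far from the others of its group, where chance gives about 1 in 20. Knockout replicate 6 had 299 CPM of Dhcr7, against 22.2 to 108 CPM in the rest of its group. Scd2 was 1697 CPM in the same line, against 709 to 1077 CPM in the others. Fads1 was 246 CPM in knockout replicate 2, against 14.7 to 94.1 CPM. Mvk was 52.8 CPM in knockout replicate 4, against 28.3 to 38.7 CPM. Among WT lines, Idi1 was 275 CPM in replicate 5, against 351 to 390 CPM in the others, and Fads2 was 161 CPM in replicate 3, against 102 to 116 CPM. The cause of these values was not tested.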

How the results depend on the processing

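The number of genes called among the 31 moved with the processing. The 1 higher gene became 0 with library size alone, with no filter, on log2(TPM + 1) and log2(TPM + 0.1), at an adjusted p under 0.01, with WT replicates 4 and 5 summed, and without WT replicate 3 and knockout replicate 2. The 2 lower genes became 7 with DESeq2, 6 on either TPM scale, 1 with limma-voom, 1 with the summed replicates, and 0 at 0.01 or without both of those lines. Leaving out 1 line gave 0 to 1 higher and 0 to 5 lower, and no member was called without WT replicate 3 or 5 or knockout replicate 1 or 7. The cholesterol median (-0.19) was -0.45 on both TPM scales, and -0.27 to -0.14 with 1 line left out. The fatty acid median (-0.21) was -0.77 with limma-voom, -0.94 on log2(TPM + 1), -0.99 on log2(TPM + 0.1), -0.75 without both lines, and -0.86 to -0.020 with 1 line left out. On log2(TPM + 1) the median of all genes was itself -0.19, and 286 genes were higher and 998 lower. DESeq2 called 2408 genes. The 7 other pathway genes called became 11 with DESeq2, 4 with the summed replicates, 2 at 0.01, and 3 to 8 with 1 line left out. No called gene changed sign in 25 alternatives, while 9 uncalled members did in 2 to 8 of them. The cause of these shifts was not tested. No paired analysis was possible because the labels give no replicate numbers that link WT with knockout lines. The biological coefficient of variation among lines was 0.548; no fit varied the depth.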
